A study of Mus musculus with 12 samples.

Results

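The 9 genes described here are Nfe2l2, which encodes the transcription factor NRF2, its inhibitor Keap1, and the redox targets Nqo1, Hmox1, Gclc, Gclm, Txnrd1, Srxn1 and Gsr. They were chosen by gene symbol, and all 9 were measured among 11614 genes in the kidney cortex of C57BL/6J mice. Libraries came from 4 groups of 3: mice with non-alcoholic steatohepatitis (NASH, in which the liver stores fat and is inflamed) after 24 weeks, controls at 24 weeks, NASH mice after 12 weeks and controls at 12 weeks. NASH mice had a Western diet together with the liver toxin carbon tetrachloride (CCl4), and controls a normal diet with corn oil. Diet, toxin and liver disease cannot be told apart in any comparison. The labels give 10, 8, 6 and 6 mice for these groups, with as many males as females in each. They give neither the age at the start nor the animals behind a library, so each p measures the spread between these libraries only.

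NRF2 is held in the cytoplasm by KEAP1, which hands it to a ubiquitin ligase for destruction. When oxidants or electrophiles modify KEAP1, NRF2 escapes, enters the nucleus and, paired with small MAF proteins, binds antioxidant response elements of its target genes. In kidney tubules this response is known for protecting cells against toxic and ischaemic injury, and much of it is set by protein stability, which RNA levels do not show.

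The libraries held an estimated 7175019 to 14053612 reads, with NASH at 12 weeks, replicates 2 and 3, and NASH at 24 weeks, replicate 3, the shallowest. Every member had at least 261 reads in every library. Proximal tubule markers were measured in 8 of 8 cases and summed to 210349 to 246224 scaled reads in NASH and 195198 to 251096 in control at 24 weeks. Adrenal cortex markers were measured in 0 of 6 cases. Replicate 1 of all 4 groups stood apart: Xist was at log2 10.6 to 11.54 there and at 2.97 to 4.86 in replicates 2 and 3, and Ddx3y, a Y-linked gene, at 2.48 to 4.25 against 8.95 to 9.62. Of genes sex-biased in mouse kidney, Kap was at 12.39 to 16.87 against 18.21 to 19.23, and Slco1a1 at 3.74 to 5.25 against 11.31 to 13.39. By these genes replicate 1 was of female type and replicates 2 and 3 of male type, although no label gives the sex of a library. Results within replicates 2 and 3 thus come from male-type libraries only. Members' changes are therefore given over all replicates, with the replicate number as a block where that changes a call, and within replicates 2 and 3.

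Stretches of promoter are shown for 3 targets, Nqo1, Txnrd1 and Srxn1. They passed as lower in NASH, averaged over both times, once the replicate number was fitted as a block. These passes were lost under several other settings, given below. RefSeq windows on GRCm38.p6 reach from 250 bases before to 50 bases after an annotated start; 6 of the 9 members had one, at 8 starts in all. Both strands were searched for TGACNNNGC, the core of the antioxidant response element, and for TGAGNNNGC, the same core with G as its 4th base. The core TGACNNNGC lay in 4 of the 8 windows, and in 12.4% of 32851 windows of all genes. TGAGNNNGC lay in 17.6% of all windows, and among the members' windows in that of Srxn1 only. A match describes letters and is not a binding site, and the windows leave out distal elements. Txnrd1 had windows at 3 starts, and those at 82833951 and 82860341, not shown, held 0 matches of either core. Below, in the 250 bases before the start of each gene on its own strand, capitals mark either core on either strand.
Nqo1, chr8:107403206-107403455, minus strand, 0 matches: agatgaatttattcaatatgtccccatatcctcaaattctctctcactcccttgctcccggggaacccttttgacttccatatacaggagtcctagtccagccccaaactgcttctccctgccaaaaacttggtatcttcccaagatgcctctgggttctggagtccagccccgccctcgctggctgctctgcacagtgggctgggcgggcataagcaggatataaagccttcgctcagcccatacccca
Txnrd1, chr10:82858956-82859205, plus strand, core on the opposite strand: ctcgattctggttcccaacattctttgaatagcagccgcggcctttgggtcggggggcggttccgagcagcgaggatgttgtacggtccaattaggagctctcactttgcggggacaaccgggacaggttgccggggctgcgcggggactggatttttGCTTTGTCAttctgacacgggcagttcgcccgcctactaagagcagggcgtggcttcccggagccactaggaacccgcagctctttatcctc
Srxn1, chr2:152105274-152105523, plus strand, TGAGNNNGC on the opposite and then on the gene strand: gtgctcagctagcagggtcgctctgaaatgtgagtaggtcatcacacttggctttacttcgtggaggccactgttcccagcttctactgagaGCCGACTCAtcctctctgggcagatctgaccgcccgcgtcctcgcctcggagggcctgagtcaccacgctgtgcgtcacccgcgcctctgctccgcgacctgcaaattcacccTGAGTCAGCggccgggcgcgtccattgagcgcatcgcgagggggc

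The other core matches were in Nfe2l2, Gclm and just past the start of Srxn1, each shown with 10 bases on either side and the core in capitals. The AP-1 element TGANTCA, which 7.81% of all windows held, overlapped the second capital stretch of Srxn1 above and also lay, unmarked, at -102 to -96 from its start.
Nfe2l2, chr2:75704885-75704913, minus strand, core on the gene strand: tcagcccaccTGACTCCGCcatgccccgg
Gclm, chr3:122245413-122245441, plus strand, core on the opposite strand: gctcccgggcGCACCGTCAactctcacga
Srxn1, chr2:152105542-152105570, plus strand, core on the opposite strand: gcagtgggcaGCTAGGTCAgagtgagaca

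Most of the 9 genes leaned lower in NASH kidneys, but none passed the test over all replicates. Of 9 members, 7 had a change below 0 at 24 weeks and 7 at 12 weeks, with medians of -0.29 and -0.336 (log2, NASH minus control) against 0.0102 and -0.0802 over all genes. Changes below 0 made up 47.9% of all genes at 24 weeks and 59.6% at 12 weeks. The test was limma, adjusted by Benjamini-Hochberg over 11614 genes, with a call at an adjusted p under 0.05. It called 0 of 9 at 24 weeks, where 0% of all genes were called, and 0 of 9 at 12 weeks, where 0.0517% were. An unadjusted p under 0.05 was reached by 3 members at 24 weeks (2.99% of all genes) and 4 at 12 weeks (14.5%).

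**Figure D1:**
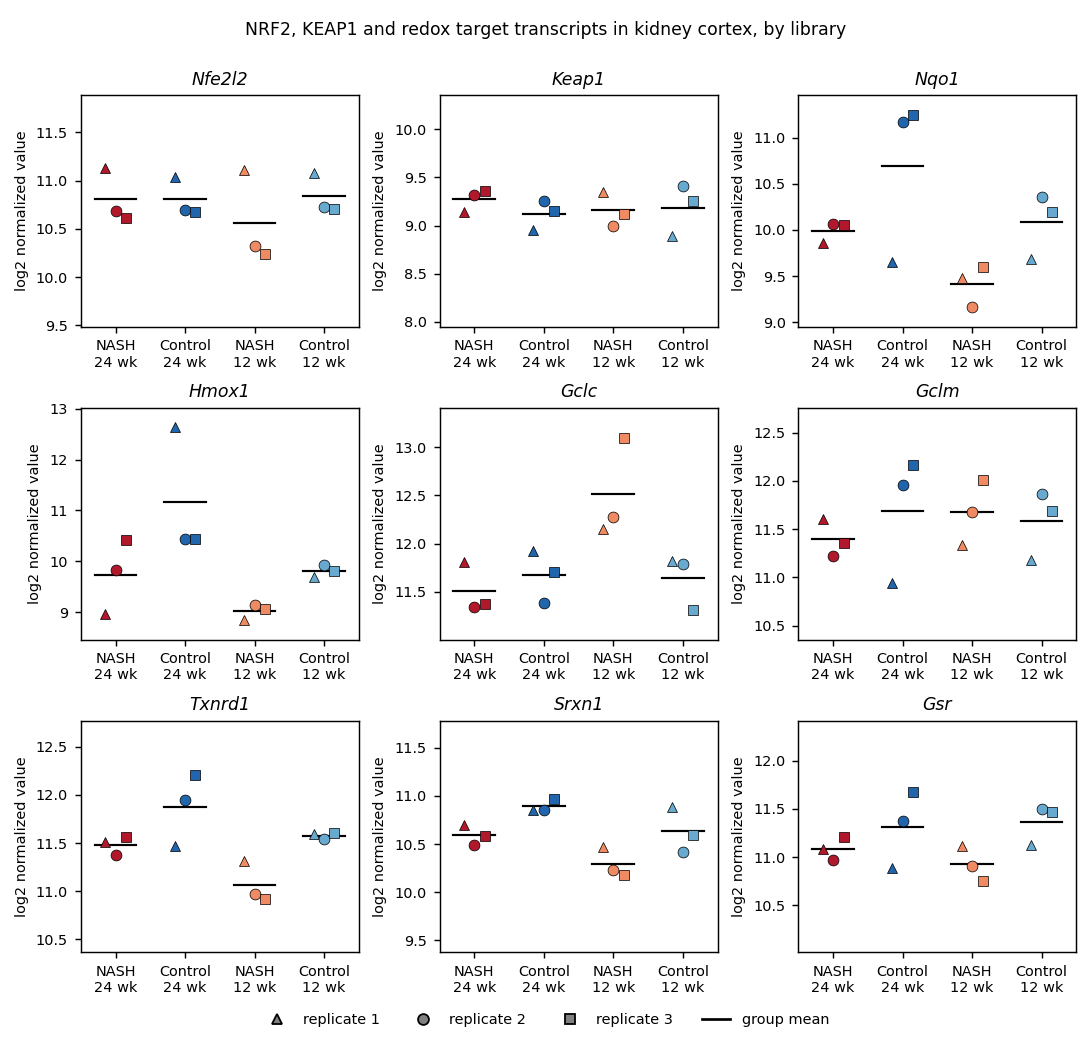
Deposited log2 normalized values of each gene (y axis, its own range per panel) in the 12 libraries by group (x axis); symbols mark the replicate number and bars the group mean. Gclc is highest in NASH at 12 weeks (12.15 to 13.1), Hmox1 has 1 control library at 12.63, and Nfe2l2 is higher in replicate 1 of every group.

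Nfe2l2 itself was level between NASH and control at 24 weeks. It stood at log2 11.13, 10.69 and 10.61 in NASH at 24 weeks, replicates 1 to 3, against 11.04, 10.7 and 10.68 in control. At 12 weeks it was at 11.11, 10.32 and 10.24 in NASH, against 11.08, 10.73 and 10.71 in control. Replicates 2 and 3 of the NASH group at 12 weeks were the lowest of the 12 libraries, while replicate 1 matched its control. The change was 0.00 (SE 0.23, 95% interval -0.51 to 0.52) at 24 weeks and -0.29 (SE 0.23, limma adjusted p = 0.588) at 12 weeks. Within replicates 2 and 3 alone the 12-week change was -0.44 (SE 0.10, limma adjusted p = 0.0496), just past the threshold, in a test that called 3.31% of all genes. The median change over all genes in that test was -0.125, and it was not repeated under other scalings. Nfe2l2 was the 1 member whose replicate 1 values, 11.04 to 11.13, did not overlap those of replicates 2 and 3, 10.24 to 10.73, as was so for 19.2% of all genes. On mm10 the gene (ID 18024) lies on chromosome 2 from 75675513 to 75704663.

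Keap1, the adaptor that ties NRF2 to its ubiquitin ligase, varied least among the members. Its values were 9.14, 9.32 and 9.36 in NASH at 24 weeks against 8.95, 9.25 and 9.15 in control. NASH was higher in all 3 same-numbered pairs, as was so for 19.3% of all genes. At 12 weeks they were 9.35, 9 and 9.12 in NASH and 8.89, 9.41 and 9.25 in control, with overlapping groups. The changes of 0.16 (SE 0.16) and -0.03 (SE 0.16) did not pass (limma adjusted p = 0.999 and 0.949), and their 95% intervals ran from -0.19 to 0.51 and from -0.38 to 0.32. In replicates 2 and 3 alone they were 0.14 (SE 0.13) and -0.27 (SE 0.13), with limma adjusted p of 0.768 and 0.222. Keap1 (ID 50868) lies on chromosome 9 from 21229730 to 21239332.

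Nqo1, the quinone reductase that serves as a standard readout of NRF2 activity, was lower in NASH in replicates 2 and 3 at both times. At 24 weeks it stood at 9.86, 10.06 and 10.05 in NASH, against 9.65, 11.17 and 11.25 in control. The 3 NASH libraries lay close together, between control replicate 1 below and control replicates 2 and 3 above. In the 12-week libraries it was at 9.48, 9.16 and 9.6 in NASH, against 9.69, 10.36 and 10.2 in control, with no overlap. The change was -0.70 (SE 0.36) at 24 weeks and -0.67 (SE 0.36) at 12 weeks, neither past the test over all replicates (limma adjusted p = 0.999 and 0.407). In replicates 2 and 3 alone Nqo1 fell at both times, with a change of -1.15 at 24 weeks (SE 0.15, 45% of control, limma adjusted p = 0.0219) and -0.90 at 12 weeks (SE 0.15, 53.5% of control, limma adjusted p = 0.0137). It was the only member called within these replicates at 24 weeks, where 0.0603% of all genes were called lower. In replicate 1 the NASH minus control differences were 0.20 at 24 weeks and -0.21 at 12 weeks. Nqo1 (ID 18104) lies on chromosome 8 from 107388225 to 107403205.

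Averaged over both times, the NASH effect on Nqo1 was -0.69 (SE 0.25, limma adjusted p = 0.31), and -0.01 in replicate 1 against -1.03 in replicates 2 and 3. That difference of 1.02 (SE 0.28) had an unadjusted p of 0.00345 and did not pass over all genes (limma adjusted p = 0.407), as 0 of 11614 genes did. An unadjusted p under 0.05 for it was reached by 7.37% of all genes. Next among the members came Gsr, at 0.09 in replicate 1 against -0.54 in replicates 2 and 3 (limma adjusted p = 0.439), Hmox1, at -2.26 against -0.53 (limma adjusted p = 0.568), and Gclm, at 0.42 against -0.36 (limma adjusted p = 0.58). Srxn1 was alike in both, at -0.28 and -0.34, a difference of 0.06 (SE 0.16).

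**Figure D2:**
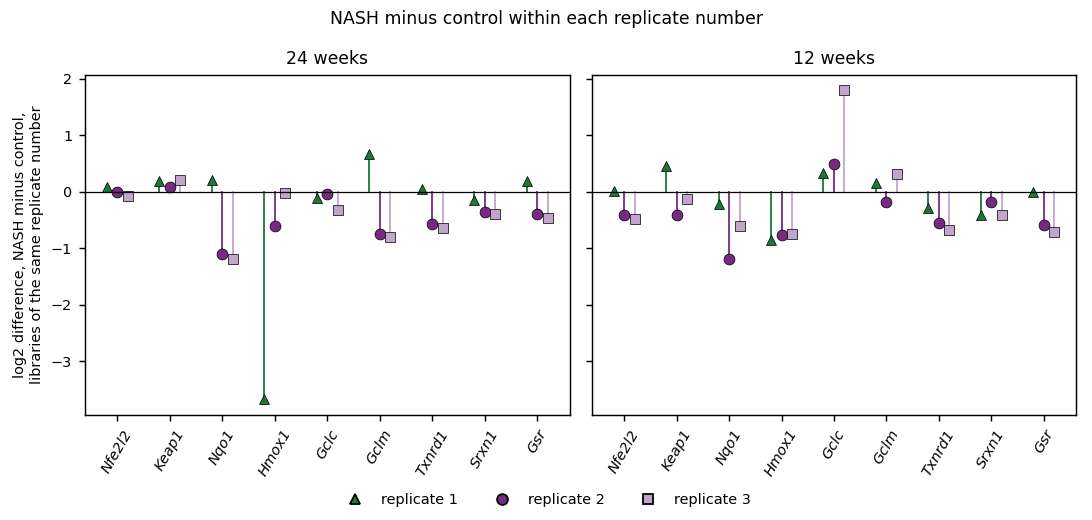
Log2 differences of NASH minus control between libraries of the same replicate number (y axis) for each gene (x axis) at 24 weeks, left, and 12 weeks, right. Nqo1, Txnrd1 and Gsr are below 0 in replicates 2 and 3 at both times and nearer 0 in replicate 1, and the Hmox1 difference of -3.67 is that of replicate 1 at 24 weeks.

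Hmox1, haem oxygenase, which splits haem into biliverdin, iron and carbon monoxide, was lower in NASH in every same-numbered pair at both times, as was Srxn1; 7.65% of all genes were. It stood at 8.97, 9.83 and 10.41 in NASH at 24 weeks and at 12.63, 10.44 and 10.44 in control. The 12-week values were 8.84, 9.15 and 9.06 in NASH, against 9.7, 9.92 and 9.8 in control. The groups did not overlap at either time, but at 24 weeks NASH replicate 3 came within 0.03 of its control. The change was -1.43 (SE 0.52) at 24 weeks, and -0.70 without control replicate 1 (limma adjusted p = 0.999 and 0.843). Within replicates 2 and 3 it was -0.32 (SE 0.17, 80.3% of control, limma adjusted p = 0.624). At 12 weeks it was -0.79 (SE 0.52, limma adjusted p = 0.493), and within replicates 2 and 3 it was -0.75 (SE 0.17), where it passed (limma adjusted p = 0.0426). Hmox1 (ID 15368) lies on chromosome 8 from 75093618 to 75100593.

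The control library at 12.63 also stood apart in cell markers. Its 7 adipocyte markers summed to 18014 scaled reads, against 2466 and 1655 in the other control libraries at 24 weeks, 545 to 1635 in NASH at 24 weeks and at most 2545 in any library at 12 weeks. Macrophages, which break down haem, were represented by 9 of 10 markers. Their sums ran from 2510 to 4764 in NASH and from 1268 to 2811 in control at 24 weeks, and from 1565 to 3312 in NASH and 1654 to 2294 in control at 12 weeks. The 7 measured erythroid markers summed to 1746 to 5451 in NASH and 873 to 2097 in control at 24 weeks, and to 1974 to 7893 in NASH and 1533 to 2004 in control at 12 weeks. At 24 weeks 9 of 9 macrophage and 7 of 7 erythroid markers lay above 0 in NASH, and at 12 weeks 7 of 9 and 7 of 7. No macrophage or erythroid marker was called at either time, with or without the block. Hbb-bt and Hbb-b2 had the same value in every library, so the erythroid counts and sums hold that measurement more than once. Hba-a1 and Hba-a2 were nearly alike as well. Adipocyte markers lay above 0 in 0 of 7 cases at 24 weeks (median -3.41) and in 7 of 7 at 12 weeks (median 1.08). None of them was called, with or without the block. Hepatocyte markers lay above 0 in 7 of 7 cases at 24 weeks and in 6 of 7 at 12 weeks, with a 12-week median of 1.12. With the block at 12 weeks 2 hepatocyte markers and 3 of the 8 markers of loop, distal tubule and collecting duct were called. The part of these cells in the members' values was not tested. In such bulk RNA, fewer cells of a type and less RNA per cell cannot be told apart.

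The subunits of glutamate-cysteine ligase, which carries out the rate-limiting step of glutathione synthesis, did not move together. Gclc, the catalytic subunit, was higher in NASH at 12 weeks and not at 24 weeks. It stood at 11.81, 11.34 and 11.37 in NASH and 11.92, 11.38 and 11.71 in control at 24 weeks. The 12-week values were 12.15, 12.28 and 13.1 in NASH and 11.82, 11.79 and 11.31 in control. All 3 NASH libraries at 12 weeks lay above all 9 others, with replicate 3 the highest. The change at 12 weeks was 0.87 (SE 0.26, 183% of control, limma adjusted p = 0.26) and passed with the replicate block (SE 0.24, limma adjusted p = 0.0423), which called 12.9% of all genes and 3.01% as higher. That test called 350 genes higher and 1144 lower on the deposited values, 532 and 698 after quantile normalization, and 686 and 693 after median-of-ratios scaling. The Gclc call itself was lost after quantile normalization (limma adjusted p = 0.0525), without the intensity trend (0.0717) and with the 12-week groups alone (0.0971). Replicates 2 and 3 alone gave 1.14 (SE 0.24, limma adjusted p = 0.034). Without NASH replicate 3 the change was 0.57 and, with the block, 0.50, and the block's call was lost (limma adjusted p = 0.0974). It was lost in 9 of the 12 cases of 1 library left out (limma adjusted p from 0.0509 to 0.17), with changes of 0.50 to 1.17.

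At 24 weeks the Gclc change was -0.16 (SE 0.26, limma adjusted p = 0.999), or -0.19 (SE 0.24, limma adjusted p = 0.849) in replicates 2 and 3, and the difference of the NASH effects, 24 minus 12 weeks, was -1.03 with an unadjusted p of 0.0164 that did not pass over all genes (limma adjusted p = 1). In that difference 0 of 9 members and 0% of all genes were called, and Gclc was the 1 member with an unadjusted p under 0.05, against 3.66% of all genes. From 12 to 24 weeks within NASH mice the Gclc change was -1.0 (SE 0.26, limma adjusted p = 0.814), and within replicates 2 and 3 it fell by 1.34 (SE 0.24, limma adjusted p = 0.0131), in a test that called 4.66% of all genes. In control mice the same comparison gave 0.03 (SE 0.26). Gclc (ID 14629) lies on chromosome 9 from 77754535 to 77794489.

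Gclm, the modifier subunit that makes the ligase efficient, changed in opposite directions in replicate 1 and replicates 2 and 3 at 24 weeks only. It was at 11.61, 11.22 and 11.36 in NASH and 10.94, 11.96 and 12.17 in control at 24 weeks, so NASH lay above control in replicate 1 and below it in replicates 2 and 3. The 12-week values were 11.34, 11.68 and 12.01 in NASH and 11.18, 11.87 and 11.69 in control, with the groups overlapping. Its changes of -0.29 (SE 0.31) at 24 weeks and, at 12 weeks, 0.09 (SE 0.31) did not pass (limma adjusted p = 0.999 and 0.908). The 24-week change within replicates 2 and 3 was -0.77 (SE 0.14, limma adjusted p = 0.0953), and that at 12 weeks was 0.06 (SE 0.14, limma adjusted p = 0.821). Gclm (ID 14630) lies on chromosome 3 from 122245557 to 122267215.

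Txnrd1, the cytosolic thioredoxin reductase, was lower in NASH at 12 weeks with no overlap between groups. It stood at 11.51, 11.38 and 11.56 in NASH and 11.47, 11.95 and 12.21 in control at 24 weeks. At 12 weeks the values were 11.31, 10.97 and 10.92 in NASH, against 11.59, 11.54 and 11.6 in control. The 12-week controls lay close together, and each NASH library was below all of them. Its change was -0.39 (SE 0.17) at 24 weeks and -0.51 (SE 0.17) at 12 weeks (limma adjusted p = 0.999 and 0.281). Replicates 2 and 3 alone gave -0.61 (SE 0.12, limma adjusted p = 0.12) and -0.62 (SE 0.12, limma adjusted p = 0.0262). Txnrd1 (ID 50493) lies on chromosome 10 from 82859206 to 82897724.

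Srxn1, sulfiredoxin, which repairs over-oxidised peroxiredoxins, lay below control in every same-numbered pair. It was at 10.7, 10.49 and 10.58 in NASH and 10.85, 10.85 and 10.97 in control at 24 weeks, with no overlap. At 12 weeks it was at 10.47, 10.23 and 10.18 in NASH and 10.88, 10.42 and 10.59 in control. The differences of the 6 pairs ran from -0.41 to -0.14. The changes were -0.30 (SE 0.14) and -0.34 (SE 0.14), which did not pass (limma adjusted p = 0.999 and 0.307), and the replicate block gave an adjusted p of 0.0573 at 12 weeks in limma. Replicates 2 and 3 alone gave -0.38 (SE 0.11) and -0.30 (SE 0.11), with limma adjusted p of 0.391 and 0.146. Srxn1 (ID 76650) lies on chromosome 2 from 152105524 to 152111376.

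Gsr, glutathione reductase, which returns oxidised glutathione to its reduced form with NADPH, was, like Nqo1, lower in NASH in replicates 2 and 3 and near its control in replicate 1. It was at 11.08, 10.97 and 11.21 in NASH and 10.89, 11.37 and 11.67 in control at 24 weeks. At 12 weeks it was at 11.11, 10.91 and 10.75 in NASH and 11.12, 11.5 and 11.47 in control. NASH was lower in all 3 pairs, as was so for 33% of all genes. Replicate 1 differed by 0.19 at 24 weeks and -0.01 at 12 weeks. The change was -0.23 (SE 0.19) at 24 weeks and -0.44 (SE 0.19) at 12 weeks (limma adjusted p = 0.999 and 0.335), while within replicates 2 and 3 it was -0.43 (SE 0.13, limma adjusted p = 0.398) at 24 weeks and -0.66 (SE 0.13, limma adjusted p = 0.0291) at 12 weeks. Gsr (ID 14782) lies on chromosome 8 from 33653238 to 33698162.

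Counted over the members, groups without overlap between NASH and control were those of Hmox1 and Srxn1 at 24 weeks, both lower, against 2.65% of all genes lower in this way. At 12 weeks Nqo1, Hmox1, Txnrd1 and Gsr were lower without overlap, against 14.4% of all genes, and Gclc was higher, against 8.14%. The 12-week test within replicates 2 and 3 called 6 of 9 members: Nfe2l2, Nqo1, Hmox1, Txnrd1 and Gsr lower, where 2.5% of all genes were, and Gclc higher, where 0.818% were. Each of these groups held 2 libraries. Over all genes that test had a median change of -0.125, with 95 genes called higher and 290 lower. Its NASH libraries held an estimated 7175019 and 8231819 reads, against 13737695 and 13057890 in control. Fits within replicates 2 and 3 used the deposited values only. Whether their calls hold after quantile normalization or median-of-ratios scaling was not tested.

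Averaged over both times, the test without the block called 0 of 9 members and 0% of all genes, while 5 members and 13.6% of all genes had an unadjusted p under 0.05. With the replicate block, which called 10.4% of all genes and 7.36% as lower, it called 3: Nqo1 at -0.69 (block SE 0.20, 62.1% of control, limma adjusted p = 0.0493), Txnrd1 at -0.45 (block SE 0.12, 73.2%, limma adjusted p = 0.039) and Srxn1 at -0.32 (block SE 0.07, 80.3%, limma adjusted p = 0.0283). These are the genes whose promoters are shown above, of which Nqo1 held no match. That test called 352 genes higher and 855 lower on the deposited values, 534 and 627 after quantile normalization, and 628 and 615 after median-of-ratios scaling. All 3 calls were lost after median-of-ratios scaling (limma adjusted p = 0.0577 for Nqo1, 0.0652 for Txnrd1 and 0.0714 for Srxn1), without the trend (0.0812, 0.0681 and 0.0522) and after removal of the trend on GC content and length (0.0796, 0.181 and 0.105). Quantile normalization lost that of Nqo1 (0.0641) and kept the other 2. As each of the 12 libraries was left out in turn with the block, Nqo1 and Txnrd1 kept the call in 2 cases each, without control 24-week replicate 1 and without NASH 12-week replicate 1, and Srxn1 in 4. The changes then ran from -0.91 to -0.55 for Nqo1, -0.57 to -0.36 for Txnrd1 and -0.37 to -0.28 for Srxn1, with limma adjusted p up to 0.129. Within replicates 2 and 3 the average effect passed for Nqo1 (-1.03, SE 0.10, 49.1% of control, limma adjusted p = 0.00194), Txnrd1 (-0.62, SE 0.08, limma adjusted p = 0.00906) and Gsr (-0.54, SE 0.09, limma adjusted p = 0.03), in a test that called 1.06% of all genes and 0.62% as lower. Srxn1 there was at -0.34 (SE 0.08, limma adjusted p = 0.079) and Hmox1 at -0.53 (SE 0.12, limma adjusted p = 0.0703).

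**Figure D3:**
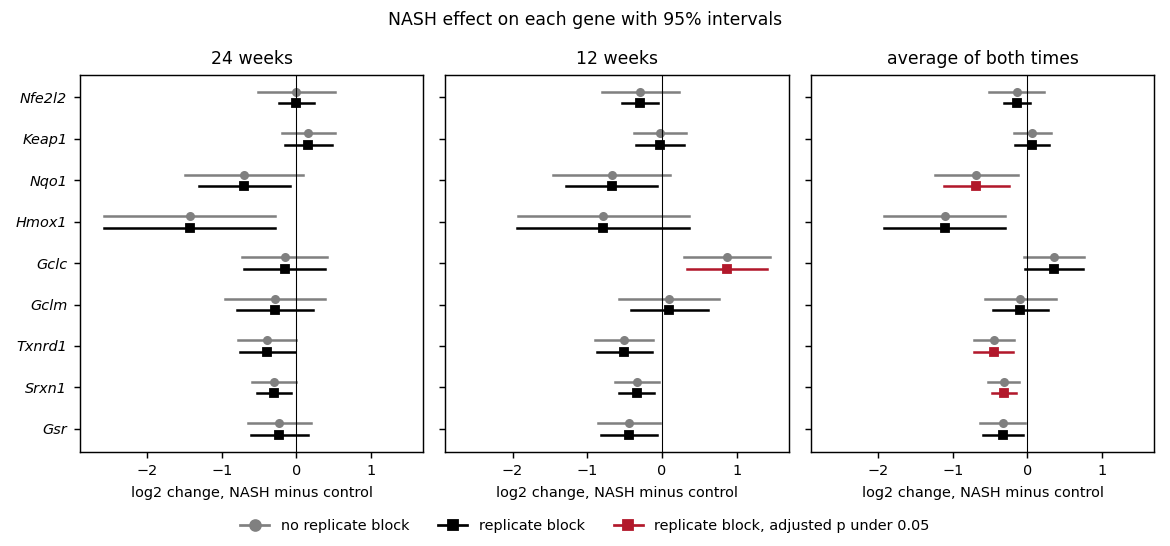
Log2 changes of NASH minus control (x axis) with 95% intervals for each gene (rows) at 24 weeks, at 12 weeks and averaged, without the replicate block (grey circles) and with it (squares; red where the adjusted p was under 0.05). The red points are Gclc at 12 weeks (0.87) and Nqo1, Txnrd1 and Srxn1 in the average (-0.69, -0.45 and -0.32).

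Time alone changed 0 of 9 members in the test over all replicates, in NASH and in control mice, where 0% of all genes were called in each. An unadjusted p under 0.05 was reached by 2 members in NASH mice (4.76% of all genes) and 1 in control mice (7.84%). Nqo1, Txnrd1 and Srxn1 were higher at 24 than at 12 weeks in NASH mice without overlap (4.06% of all genes), and Gclc was lower (4.37%). In control mice Hmox1 was higher at 24 weeks without overlap (4.72% of all genes). Its change was 1.36 (SE 0.52, limma adjusted p = 0.566) in control mice and 0.72 (SE 0.52, limma adjusted p = 0.999) in NASH mice. Nqo1 was at 0.58 (SE 0.36, limma adjusted p = 0.999) in NASH mice and 0.61 (SE 0.36, limma adjusted p = 0.714) in control mice.

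More of this passed within replicates 2 and 3. In NASH mice Nqo1 (0.68, SE 0.15), Hmox1 (1.02, SE 0.17) and Txnrd1 (0.52, SE 0.12) rose between 12 and 24 weeks and Gclc fell, where 2.51% of all genes were called higher and 2.14% lower. The limma adjusted p were 0.0283, 0.0089 and 0.0356 for the genes that rose. In control mice Nqo1 (0.93, SE 0.15, limma adjusted p = 0.00693) and Txnrd1 (0.51, SE 0.12, limma adjusted p = 0.0337) rose, in a test that called 6.5% of all genes and 2.33% as higher. The difference between the NASH and control changes was -0.25 (SE 0.21, limma adjusted p = 0.605) for Nqo1 and 0.01 (SE 0.17, limma adjusted p = 0.984) for Txnrd1, in a test that called 0 of 9 members and 0.629% of all genes.

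All 9 members had a mean over the 12 libraries above the median of such means over all genes, log2 8.62. Per kilobase of transcript, Gclm was the most abundant, at a mean level of log2 10.54 scaled reads over the 12 libraries. It was followed by Gclc (10.05), Txnrd1 (9.77), Gsr (9.75), Nfe2l2 (9.43), Nqo1 (9.41), Hmox1 (9.28), Srxn1 (9.11) and, far below, Keap1 (7.45). Of the 8 steps down this order, those from Gsr to Nfe2l2, by 0.32, and from Srxn1 to Keap1, by 1.66, were larger than the SD over libraries of both genes. Levels of Txnrd1 and Keap1, with 4 listed transcripts each, and Nfe2l2, with 2, may hold a mean over transcripts, while the other 6 members have 1 transcript. The spread over the 12 libraries was widest for Hmox1 (SD 1.03) and Nqo1 (SD 0.64) and narrowest for Keap1 (SD 0.17).

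The genes whose centred profile lay nearest to Nfe2l2 over the 12 libraries were Sipa1l3, Pphln1 and Rnf216, each at a mean absolute difference of 0.07 log2. For Nqo1 they were Cyp4a32 (0.23), Retsat (0.24), which saturates retinol, and Tubb4b (0.24), a beta-tubulin. For Hmox1 the nearest were Pex11a (0.46), Kbtbd11 (0.47) and H6pd (0.49), and in none of the 3 was control replicate 1 at 24 weeks the highest library. These profiles share the libraries, their depth and the step between replicate 1 and the others.

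Around the 9 members, lists of other genes of the pathway showed no common direction. Without the block no gene of any list passed at 24 weeks, at 12 weeks or in the average. With it, the 12-week test called 12 of 81 list genes (14.8%), against 12.9% of all genes. Of them 5 were higher (6.17%, against 3.01%) and 7 lower (8.64%, against 9.85%). In the average 8 of 81 (9.88%) were called, against 10.4% of all genes. Of these, 1 was higher (1.23%, where 352 of 11614 genes were) and 7 were lower (8.64%, against 7.36%). The shares called in either direction are near those of all genes, while the share called higher at 12 weeks lies above. No list is read as changed from the single genes named next. Among 13 measured controllers and partners of NRF2, 11 lay below 0 at 24 weeks and 10 at 12 weeks, with medians of -0.124 and -0.15. With the block at 12 weeks 1 rose and 2 fell. Mafk, a small MAF partner of NRF2, rose by 0.58 (block SE 0.17, limma adjusted p = 0.0445). Gsk3b, a kinase that marks NRF2 for destruction, fell by 1.56 (block SE 0.31, limma adjusted p = 0.0149), and Crebbp, a coactivator that acetylates NRF2, fell by 0.89 (block SE 0.15, limma adjusted p = 0.0086). In the average Bach1, the repressor that competes with NRF2 at Hmox1, fell by 0.46 (block SE 0.11, limma adjusted p = 0.029), as did Gsk3b by 0.91 (limma adjusted p = 0.0312) and Crebbp by 0.68 (limma adjusted p = 0.00991).

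Of 16 measured genes of glutathione synthesis and use, 12 lay above 0 at 24 weeks and 8 at 12 weeks, and with the block 3 rose and 1 fell at 12 weeks. Those that rose were Gss, the glutathione synthetase that acts after the ligase (0.59, block SE 0.15, limma adjusted p = 0.0285), the glutaredoxin Glrx5 (0.55, limma adjusted p = 0.0369; 0.42 and 0.033 in the average) and Gpx4, the lipid peroxidase (0.53, limma adjusted p = 0.0289). Gsta3, a glutathione transferase of the alpha class, fell by 1.26 (block SE 0.12, 41.9% of control, limma adjusted p = 0.00209). It stood at log2 10.68, 10.1 and 9.91 in NASH and 11.61, 11.5 and 11.35 in control at 12 weeks, and at 11.21, 10.68 and 10.75 in NASH and 11.63, 11.47 and 11.53 in control at 24 weeks. NASH lay below control without overlap at both times, in replicate 1 as in the others. At 24 weeks its change of -0.66 did not pass (block SE 0.12, limma adjusted p = 0.255), and the average of -0.96 did (block SE 0.09, limma adjusted p = 0.00126), as it did without each of the 12 libraries in turn. Alpha class transferases are near copies of each other, and how reads shared by them were counted is not stated.

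**Figure D4:**
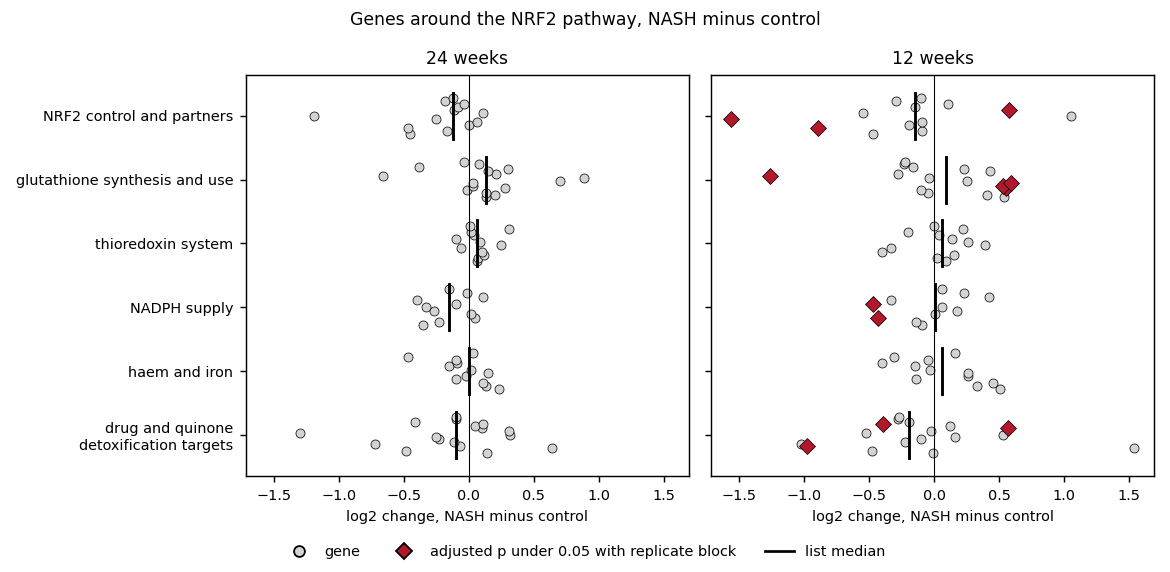
Log2 changes of NASH minus control (x axis) of each measured gene of 6 lists (rows) at 24 weeks, left, and 12 weeks, right, with the list median as a bar and genes called with the replicate block as red diamonds. List medians lie between -0.151 and 0.126 at 24 weeks and no gene is called there.

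The thioredoxin system, 12 genes, had 10 above 0 at 24 weeks and 8 at 12 weeks and none called with or without the block. Txnrd2, the mitochondrial reductase, was at 0.31 (SE 0.13) at 24 weeks and, at 12 weeks, 0.22 (SE 0.13). Txn1, thioredoxin, was at 0.25 (SE 0.27) at 24 weeks and, at 12 weeks, 0.39 (SE 0.27). Of 11 genes that supply NADPH, 8 lay below 0 at 24 weeks and 5 at 12 weeks. With the block, Idh1 (-0.43, limma adjusted p = 0.0257) and Nnt (-0.47, limma adjusted p = 0.0283) fell at 12 weeks and Pgd, of the pentose phosphate pathway, fell in the average (-0.37, limma adjusted p = 0.0365). Haem and iron genes, 12 measured, split 6 to 6 at both times with none called. The smallest p there were those of Tfrc, the transferrin receptor, at 24 weeks (-0.47, SE 0.19, limma adjusted p = 0.999) and of the iron exporter Slc40a1 with the block at 12 weeks (-0.40, block SE 0.13, limma adjusted p = 0.0646).

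Of 17 detoxification targets, 10 lay below 0 at 24 weeks and 12 at 12 weeks. With the block at 12 weeks 1 rose, the epoxide hydrolase Ephx1 (0.57, limma adjusted p = 0.0464), and 2 fell, the quinone reductase Nqo2 (-0.39, limma adjusted p = 0.0476) and the efflux pump Abcc4 (-0.98, limma adjusted p = 0.0431). In the average 2 fell, the efflux pump Abcc2 (-0.48, limma adjusted p = 0.031) and the reductase Akr1c13 (-0.87, limma adjusted p = 0.0445). Of the 12 list calls at 12 weeks, that of Gsta3 alone held without each library in turn, and in the average those of Gsta3 and Crebbp did. Within replicates 2 and 3 alone 3 of the 12 calls at 12 weeks were kept, those of Crebbp, Gsta3 and Abcc4, and 3 of the 8 in the average, those of Crebbp, Gsta3 and Pgd. After each library's trend on GC content and length was removed, 3 of the 12 remained, those of Crebbp, Gss and Gsta3.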

How the data were processed

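RNA of kidney cortex was sequenced in 12 libraries. The deposited values are normalized expression on a log2 scale, 1 per gene and library; BWA, limma and the build mm10 are named in the submitters' processing notes, and how the scaling was done is not given in the sources used here. In each library 86.3% to 91.5% of the low values (below 60 reads) were whole multiples of 1 step within 0.01, from which depths of 7175019 to 14053612 reads were estimated. Every gene listed reached 100 scaled reads in at least 1 library, and 16 symbols had been turned into dates.

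The log2 values were fitted in limma 3.58.1 (R 4.3.3) with a mean per group over all 12 libraries and an intensity trend, and p-values were adjusted by Benjamini-Hochberg over 11614 genes. The fit without the block was tried on simulated data, with independent noise in each library and changes larger than those of the members. A step shared by libraries, the block and the fit within replicates 2 and 3 were not simulated. Tables and plots were made with Python 3.11.15, pandas 2.3.3, numpy 2.4.6 and matplotlib 3.10.9. Alternatives were the replicate number as a block, other scalings, filters on low values, a correction for GC content and length, no trend, and leaving out libraries. Same-numbered libraries deviated together (r = 0.19 to 0.74 in 18 of 18 pairs), with those numbered 1 at 0.55 to 0.74. Libraries 2 and 3 correlated as much across numbers (0.19 to 0.64) as within them (0.19 to 0.64). These values therefore show a step between library 1 and the others, and not that 2 pairs with 2 or 3 with 3. The numbers were still used to pair the libraries and as the block, although no label explains them. Library 1 correlated negatively with the others (-0.70 to -0.27). Deviations were taken from means of 3 libraries and sum to 0 in a group, so a library that stands apart gives negative r.

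All 9 members were named. Of each pathway list, genes called with or without the block were named, or otherwise some of those with the smallest p. The members, lists and tests were chosen with earlier results of these data known.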

Additional observations from a re-analysis of the deposited data

Results flagged for a closer look

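The NASH effect on Gclc differed between the times before adjustment. The change was -0.16 at 24 weeks and 0.87 at 12 weeks (log2, NASH minus control), a difference of -1.03 (SE 0.36, 95% interval -1.83 to -0.23). Its unadjusted p was 0.0164, and it did not pass over all genes (limma adjusted p = 1, and 0.282 with the replicate block). The same-numbered pairs lay at -0.11, -0.04 and -0.33 at 24 weeks and at 0.33, 0.49 and 1.8 at 12 weeks. Gclc was flagged because all 3 pairs turned between the times, so that pattern adds no support of its own. At 24 weeks 14.4% of all genes were lower in all 3 pairs, and at 12 weeks 16.9% were higher. The share of all genes with such a turn was not counted. Without NASH replicate 3 at 12 weeks the difference was -0.74.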

How the results depend on the processing

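Over all replicates 0 of 9 members were called in each of the 6 comparisons. Within replicates 2 and 3 the counts were 1 at 24 weeks, 6 at 12 weeks and 3 in the average. For time they were 4 in NASH and 2 in control mice. In the same order, all genes called there numbered 12, 385, 123, 541 and 755 of 11614. With the block added the members called were 1, 6, 3, 5 and 2, and all genes called 25, 632, 185, 596 and 800. The replicate block over all libraries called 1 member at 12 weeks, also with the GC correction, and 3 in the average. With the block, the 12-week count was 0 after quantile normalization (1230 of all genes) and without the trend (926). It was 0 to 5 with 1 library left out, where 253 to 1533 of all genes were called. The average count was 0 after median-of-ratios scaling (1243 of all genes), without the trend (729) and with the GC correction (299). It was 0 to 3 with 1 library left out, where 210 to 1093 of all genes were called. Block counts for time ran from 0 to 1 in NASH (0 to 170 of all genes) and 0 to 2 in control mice (0 to 434) with 1 library left out. The cause was not tested.

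The difference of the NASH effects on Hmox1, 24 minus 12 weeks, was -0.65 (SE 0.73) over all replicates and 0.44 (SE 0.24) within replicates 2 and 3, and passed in neither. Among the changes printed above, these also turned sign. Nfe2l2 at 24 weeks (0.00) became -0.007 after quantile normalization, -0.003 after median-of-ratios scaling and -0.04 within replicates 2 and 3, and ran from -0.158 to 0.121 with 1 library left out. Keap1 at 12 weeks became 0.076 and 0.058 under these scalings and ran from -0.177 to 0.085 with 1 library left out. In the average it was -0.066 within replicates 2 and 3 and -0.009 to 0.122 with 1 library left out. Gclm ran from -0.105 to 0.261 at 12 weeks and from -0.286 to 0.022 in the average, and Gclc for time in control mice from -0.14 to 0.17, with -0.005 within replicates 2 and 3.

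Over all genes the 12-week test called 6, against 1494 with the block, 926 with the block and no trend, and 334 with the block and the GC correction. Leaving out 1 library gave 0 to 11 without the block and 253 to 1533 with it. It called 385 within replicates 2 and 3, and over the compared groups alone 1 without the block and 473 with it. The average called 0, against 123 within replicates 2 and 3 and 1207 with the block. The block called 729 without the trend and 299 with the GC correction. Each group held 3 libraries, or 2 within replicates 2 and 3, and every member had at least 261 reads.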
